A study of Mus musculus with 4 samples.

Results

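The outer stripe of the outer medulla holds the straight end segment of the proximal tubule, and the spots richest in the RNA of that segment were compared between ischemic and normal mouse kidneys. In each section, UMI counts were pooled over every spot under tissue and its up to 6 neighbours on the array, and the 15% of spots with the highest share of 4 straight tubule genes, Slc7a13, Cyp7b1, Serpina1f and Slc22a13, were taken. This gave 1546 of 10312 spots: 392 of 2616 in normal section 1, 402 of 2682 in normal section 2, 360 of 2401 in ischemic section 1 and 392 of 2613 in ischemic section 2. A spot is a small region that can hold several cells of different types, so the RNA of a spot is not that of 1 tubule.

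Spatial RNA was measured with the Visium slide assay on 10 µm frozen sections of left kidneys from male WT C57BL/6J mice of 7 to 8 weeks, and all 4 sections lay on 1 slide. The normal group (Normal ctrl) had 2 sections. The ischemic group (Ischemic reperfusion injury) had 2 sections, from mice in which both renal pedicles were clamped for 30 min under pentobarbital and which were examined 24 h later. Whether the normal mice had anesthesia or a sham operation was not stated in the sources used. The labels do not tie sections to mice, and both sections of a condition may come from 1 mouse, so tests took each section as 1 replicate and the p-values measure the spread between sections, which may be partly technical. The summed counts of the chosen spots were 7785912 UMIs (normal 1), 4598123 UMIs (normal 2), 6204265 UMIs (ischemic 1) and 4898681 UMIs (ischemic 2).

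As background, cells of the straight segment take up organic ions and amino acids through carriers on both faces, digest filtered peptides at a brush border and burn fatty acids in mitochondria and peroxisomes, with little capacity for glycolysis. The outer stripe is poorly supplied with oxygen, and its tubules are the best known site of damage after renal ischemia. Injured proximal tubule cells lose transporters and brush border proteins, and they switch on genes such as Havcr1, which encodes the shed injury marker KIM-1, together with keratins, stress chaperones and growth-associated transcription factors.

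The label was checked against genes the rule had not used, although these too were chosen with earlier results of these data known. In the normal sections, all 8 other straight tubule genes examined had a higher summed level in the chosen spots than in the remaining spots, with median ratios of 1.77 and 2.08. In the ischemic sections, 5 and 6 of the 8 were higher, with median ratios of 1.15 and 1.35. Slc22a19, a urate and anion carrier, was 5.06 and 8.25 times as high in the chosen ischemic spots as in the rest, and Slc22a7, an organic anion carrier, 4.32 and 5.82 times. By contrast Acy3, an aminoacylase, was at 0.638 and 0.759 of the level in the rest, and Slc1a1, a glutamate carrier, at 0.633 and 0.713. The label therefore held for all 8 genes in the normal sections and for only a majority of them in the ischemic sections.

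The ranking also rested on different genes in the 2 conditions. Serpina1f supplied 45.9% and 44.5% of the UMIs of the 4 genes in the normal spots and 82.1% and 81.6% in the ischemic spots. Ranking spots by the 8 other genes returned 73% and 78.6% of the chosen spots in the normal sections but only 19.4% and 28.3% in the ischemic sections. That ranking drew ischemic spots with more cortical RNA: Slc34a1, the phosphate carrier of the convoluted tubule, stood at 274 and 283 CPM unscaled by TMM in them, against 52.5 and 55.3 in the ischemic spots chosen by the rule. A ranking by Slc22a7, Slc22a19 and Slc6a18 returned 52.8% and 60.2% of the chosen ischemic spots, and the rule without Serpina1f returned 62.5% and 65.1%. Both of these rankings were added after the data had been seen, and each of the 3 turned the direction of some genes. Against the values by the rule, the fold change moved by over 1.5-fold for 93 of 157 genes named in the text with the 8-gene ranking, 45 of 160 with the 3 carriers and 28 of 160 without Serpina1f.

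**Figure D1:**
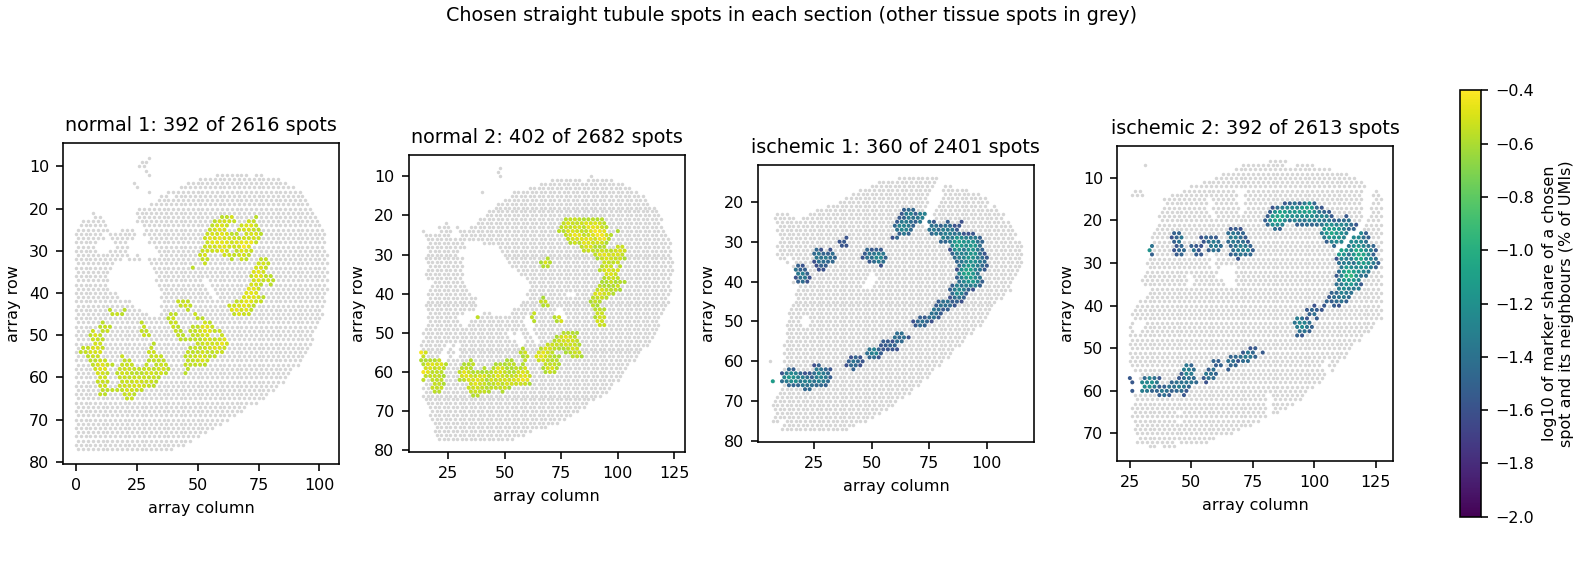
Array row and column of every tissue spot in the 4 sections, with spots that were not chosen in grey and chosen spots coloured by the log10 of their marker share, in percent of UMIs, pooled with the neighbours. The chosen spots form 8 to 12 patches in a section, and the normal spots, with median shares of 0.294% and 0.287%, are brighter than the ischemic spots, with 0.0372% and 0.0396%.

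The chosen spots formed 8 and 10 connected patches in normal tissue, 10 and 12 in ischemic tissue, and the largest patch held 33.2% to 46.7% of the spots of a section. A chosen spot had a median of 5 chosen neighbours in every section. Measured from the tissue edge, their median depth was 10 and 8 spot steps in normal tissue, 8 and 6 in ischemic tissue, against 4 or 5 for the other spots. Median UMIs per chosen spot were 18352.5 and 10597.5 in normal tissue, 16662.5 and 12189 in ischemic tissue, so depth overlapped between the conditions. Mitochondrial transcripts made up 4.83% and 3.95% of UMIs in the chosen normal spots and 3.04% and 3.72% in the chosen ischemic spots.

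Among the 2 promoters shown here, that of Krt20 belongs to the gene with the largest rise in these spots, a keratin gene, and that of Srxn1 to the oxidative stress gene with the lowest adjusted p. Krt20 lies at chr11:99428403-99438150 on the minus strand and Srxn1, which encodes the enzyme sulfiredoxin, at chr2:152105516-152111376 on the plus strand of GRCm38. Each sequence runs 5′ to 3′ from 250 bases before to 50 bases after the RefSeq gene start in GRCm38.p6, chr11:99438104-99438403 for Krt20 and chr2:152105274-152105573 for Srxn1. Capitals mark matches, on either strand, to a heat shock element (GAA, TTC and GAA in that order, with 2 bases of any kind between units), an antioxidant response element written TGACNNNGC or an AP-1 site written TGANTCA.
Krt20: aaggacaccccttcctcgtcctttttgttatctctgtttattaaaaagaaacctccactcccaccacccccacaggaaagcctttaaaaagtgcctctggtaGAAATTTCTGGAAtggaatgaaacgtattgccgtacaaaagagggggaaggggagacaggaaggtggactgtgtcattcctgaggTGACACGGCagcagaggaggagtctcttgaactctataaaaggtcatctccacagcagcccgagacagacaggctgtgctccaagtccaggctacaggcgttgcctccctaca
Srxn1: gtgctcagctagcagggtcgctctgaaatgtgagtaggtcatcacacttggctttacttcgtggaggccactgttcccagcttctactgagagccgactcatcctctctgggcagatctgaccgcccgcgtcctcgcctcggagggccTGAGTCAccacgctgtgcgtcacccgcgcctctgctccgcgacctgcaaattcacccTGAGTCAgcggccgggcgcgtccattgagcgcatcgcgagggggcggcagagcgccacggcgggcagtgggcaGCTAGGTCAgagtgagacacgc
In the Krt20 window the heat shock element spans bases 103 to 115 and the antioxidant response element bases 188 to 196. In the Srxn1 window AP-1 letters stand at bases 149 to 155 and 206 to 212, and an antioxidant response element is read on the opposite strand at bases 279 to 287. Of 32851 such windows over 27025 genes, 0.603% held the heat shock letters, 12.4% the antioxidant letters and 7.81% the AP-1 letters. Counted per gene over all its windows, as for the lists below, the shares were 0.662%, 14% and 8.97%. A match is a description of the sequence and not evidence of binding.

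The first comparison asked which genes differed between ischemic and normal outer stripe spots. Of 12275 genes tested, 4232 (34.5%) were higher in the ischemic sections and 3956 (32.2%) were lower at an adjusted p of 0.05, by the quasi-likelihood test of edgeR, adjusted by Benjamini-Hochberg. With so many genes called, the number called in any list is read against those 2 shares. Over genes, log2 differences had a standard deviation of 0.31 for the normal pair and 0.25 for the ischemic pair, against 1.24 to 1.28 between sections of different condition. Values below are CPM, which here means UMIs scaled to a common total after TMM scaling of the 4 section sums, and pairs of values are sections 1 and 2. Scaling by total UMIs instead moved the median gene up by 0.38 on the log2 scale and turned the split into 5764 higher and 2529 lower. In spots, fewer cells of a type and less RNA per cell cannot be told apart.

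The 4 genes of the rule were themselves far lower in the ischemic spots, and since they chose the spots these levels are a description with no test. Slc7a13, an aspartate and glutamate carrier at chr4:19818725-19842218, stood at 1057 and 982 CPM in the normal sections and 21.8 and 24.4 CPM in the ischemic sections. Cyp7b1, an oxysterol hydroxylase at chr3:18071950-18243338, stood at 765 and 626 CPM in the normal sections and 19.7 and 24.7 CPM in the ischemic sections. Serpina1f, a serpin family member at chr12:103688044-103695529, was at 1697 and 1413 CPM in the normal sections and 307 and 334 CPM in the ischemic sections, which is the smallest log2 difference of the 4, -2.28. Slc22a13, a carrier of nicotinate and urate at chr9:119192974-119209098, was at 178 and 157 CPM in the normal sections and 25.3 and 26.3 CPM in the ischemic sections. For all 4 genes both ischemic sections lay below both normal sections. The pooled marker share of the last spot inside the limit was 0.269979% and 0.247001% in normal tissue, 0.0240442% and 0.0252113% in ischemic tissue, next to 0.269939%, 0.246345%, 0.0239856% and 0.0250466% for the first spot outside it. In neither ischemic section did any spot reach the lower of the normal limits.

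Of the 8 straight tubule genes that the rule had not used, 7 fell and 1 did not pass the test, with a median log2 fold change of -2.77 against 0.06 over all genes tested. Slc22a7 was at 999.7 and 877 CPM in the normal sections and 17.8 and 22.6 CPM in the ischemic sections (log2 fold change -5.55 ± 0.16, SE, adjusted p = 6.38e-35). Acy3 went from 4199 and 3858 to 171 and 191 CPM (-4.48 ± 0.17). Slc22a19 went from 292 and 281 to 15.7 and 21 CPM (-3.98 ± 0.13). In these 3 genes the ischemic sections lay more than 10 times below the normal ones, with no overlap.

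Slc3a1, the heavy subunit of the cystine carrier, went from 666 and 572 to 84.6 and 90.3 CPM, Atp11a, a phospholipid flippase, from 1019 and 965 to 141 and 162 CPM, and Slc1a1 from 140.1 and 120.4 to 26.8 and 29.8 CPM, and all 3 passed the test. Slc5a1, the intestinal-type sodium-glucose cotransporter, showed the smallest fall, from 37.8 and 34.7 to 27.5 and 31.4 CPM (adjusted p = 0.0327), and this call is lost with DESeq2 (adjusted p = 0.182), without normal section 1 (0.188), without ischemic section 1 (0.318), in the top 10% of spots (0.108), without the count filter (0.102) and with the 3-carrier ranking (0.461), and its direction turns with total UMI scaling (log2 0.07) and with spots ranked by the 8 genes (0.10). Slc6a18, a carrier of neutral amino acids, is the exception among the 8, at 668 and 611 CPM in the normal sections and 698 and 734 CPM in the ischemic sections (adjusted p = 0.251). Its groups did not overlap, and it passed as higher with total UMI scaling, without normal section 1 and in the top 10% of spots. The 5 of these genes outside the 3-gene ranking kept 4 calls lower when that ranking chose the spots.

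**Figure D2:**
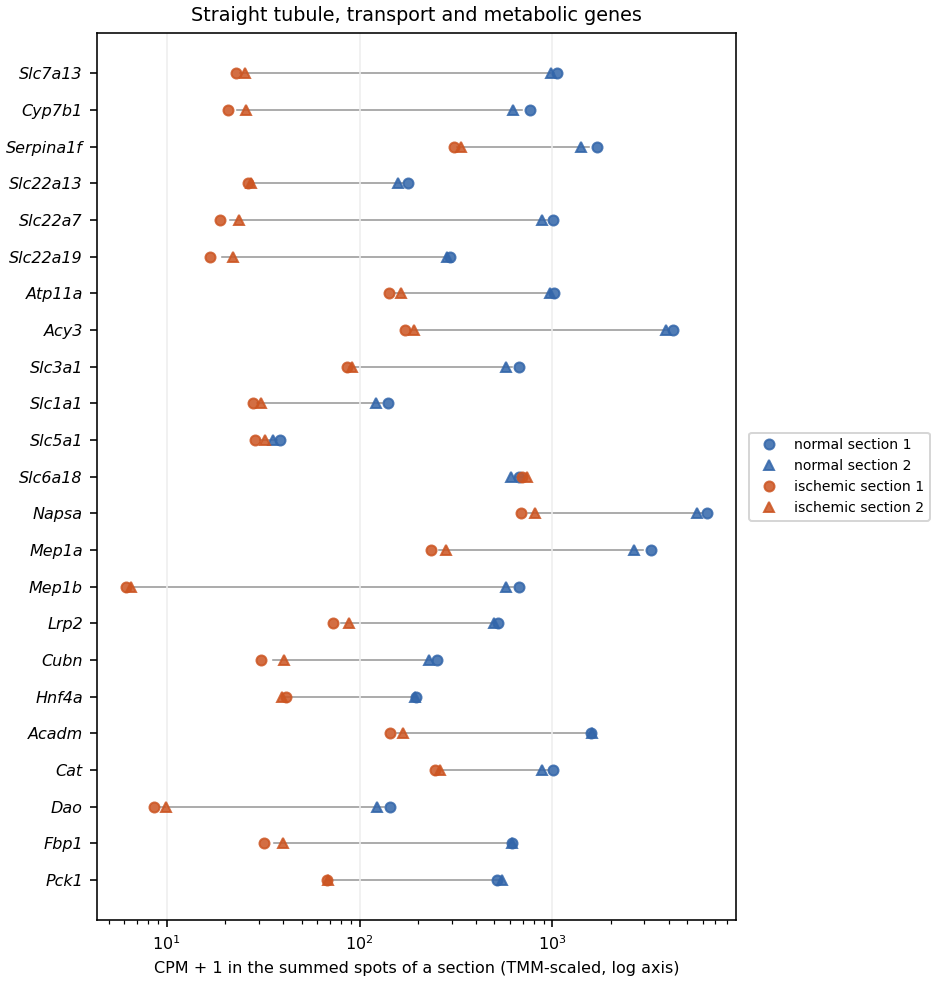
Level in each section of straight tubule, brush border, transport and metabolic genes, as CPM + 1 of the summed chosen spots on a log axis, with circles for section 1, triangles for section 2, blue for normal and orange for ischemic, and a line joining the means of the conditions. Slc22a7 lies at 999.7 and 877 CPM in the normal sections and at 17.8 and 22.6 CPM in the ischemic sections, while the 4 points of Slc6a18 lie close together.

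Genes expressed along the whole proximal tubule fell as well: of 18 tested, 15 fell, 1 rose and 2 did not pass the test, with a median log2 fold change of -1.80. Mep1b, the beta subunit of the brush border metalloprotease meprin, was at 673 and 574 CPM in the normal sections and 5.14 and 5.56 CPM in the ischemic sections (-6.87 ± 0.17, adjusted p = 5.09e-37), and Mep1a, its alpha partner, went from 3260.2 and 2661 to 234 and 279 CPM. Among the endocytic receptors Lrp2, which encodes megalin, went from 519 and 497 to 71.4 and 87.5 CPM (-2.68 ± 0.13), and Cubn, which encodes cubilin, from 251 and 228 to 29.8 and 39.6 CPM. The water channel gene Aqp1 went from 1138 and 1000.5 to 91.6 and 130.3 CPM, and Napsa, an aspartic protease, from 6332 and 5596 to 687 and 809 CPM. For each of these 6 genes the conditions were separated by more than 5-fold. With the 8-gene ranking the list had 4 higher and 12 lower and a median of -1.08, and under the other 2 rankings 3 were higher.

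Fxyd2 moved less. This gene, which encodes the small regulatory subunit of the sodium pump, went from 9707 and 8534 to 3569.9 and 3405 CPM (-1.39 ± 0.18). Slc4a4, the basolateral bicarbonate carrier, was called higher, at 20.7 and 30.6 CPM in the normal sections and 31.7 and 33.2 CPM in the ischemic sections (adjusted p = 0.0217), but lost the call with DESeq2 (0.285), in the top 10% of spots (0.384), ranked without neighbours (0.0612), without normal section 1 (0.691) and without ischemic section 2 (0.0805). Slc13a1, a sulfate carrier, was at 27 and 30.1 CPM in the normal sections and 33.8 and 34.8 CPM in the ischemic sections and did not pass the test, although it passed as higher under all 3 alternative rankings (log2 2.19, 1.45 and 1.03), with total UMI scaling (0.65, adjusted p = 0.00197) and with no filter (0.32, adjusted p = 0.0453).

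Among 9 carriers of organic ions and drugs, 7 fell and 2 rose. Slc22a2, an organic cation carrier, went from 176 and 158 to 10.6 and 11.3 CPM (-3.94 ± 0.14), and Slco4c1, an organic anion carrier, from 20.8 and 22.2 to 1.43 and 1.25 CPM (-3.97 ± 0.27). Abcg2, an efflux pump, went from 232 and 190.3 to 98.3 and 108 CPM, but stood higher by 0.15 on the log2 scale, with adjusted p = 0.237, when spots were ranked by the 8 genes. Abcc4, another efflux pump, rose from 3.76 and 5.09 to 18.1 and 18.5 CPM (2.08 ± 0.22, adjusted p = 6.88e-12). Slc22a6, the carrier used by para-aminohippurate, rose from 17.1 and 26.4 to 35.1 and 37.6 CPM. Ranking by the 8 genes gave 4 higher and 4 lower of 9 and a list median of 0.15 in place of -1.66, so the balance of this list depended on how ischemic spots were picked.

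Of 9 cytochrome P450 genes, 1 lay below the count filter, 6 fell and 2 rose. Cyp2j5, an arachidonate epoxygenase, went from 1027 and 859 to 104 and 122 CPM (-3.06 ± 0.14), and Cyp51, a step of cholesterol synthesis, from 414 and 369 to 25 and 25.1 CPM (-3.97 ± 0.13). Cyp24a1, which degrades active vitamin D, rose from 0.47 and 0.926 to 20.6 and 31 CPM (5.23 ± 0.33, adjusted p = 3.57e-20). Cyp4a10, a fatty acid hydroxylase, went from 356 and 311 to 89.5 and 86.9 CPM, while Cyp4a14 of the same family rose from 5.96 and 5.56 to 13.7 and 14.2 CPM. The direction of Cyp4a10 turned when the 8 genes ranked the spots (log2 0.12, adjusted p = 0.396), and the list then had 4 higher and 2 lower of 8.

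Genes of peroxisomes and fatty acid oxidation fell as a list, 17 of 19 lower, none higher and 2 not passing the test, with a median log2 fold change of -0.97. Acadm, which starts the oxidation of medium-chain fatty acids, was at 1578 and 1606 CPM in the normal sections and 143 and 168 CPM in the ischemic sections (-3.36 ± 0.14, adjusted p = 1.6e-27). Dao, the peroxisomal D-amino acid oxidase, went from 143 and 122 to 7.56 and 8.96 CPM (-4.02 ± 0.14), and Cat, which encodes catalase, from 1007 and 883 to 245 and 261 CPM (-1.90 ± 0.13). Smaller falls were found for Cpt1a, the gate of mitochondrial fatty acid entry, from 133 and 128 to 85.8 and 88.9 CPM, and for Hadha, a subunit of the trifunctional protein, from 134 and 141 to 85.1 and 86.9 CPM. With the 8-gene ranking these 2 stood at 0.22 (adjusted p = 0.0863) and 0.02 (adjusted p = 0.900), and Cpt1a also lost the call with total UMI scaling (0.105) and with the 3-carrier ranking (0.169). The size of the list's fall depended on the choice of spots: it had 0 higher and 14 lower of 19 with the rule without Serpina1f, 2 higher and 12 lower with the 3-carrier ranking, and 4 higher and 6 lower of 18 with the 8-gene ranking. Under that last ranking Acaa1b, a peroxisomal thiolase, was higher by 1.53 (adjusted p = 3.23e-22), and Ehhadh, the peroxisomal bifunctional enzyme, was higher by 0.06 (adjusted p = 0.714), where the rule gave -0.97 and -2.29. Acaa1b was also higher with the 3-carrier ranking, by 0.65 (adjusted p = 3.6e-06), and by 0.19 (adjusted p = 0.127) with the rule without Serpina1f.

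All 5 gluconeogenic genes fell, by a median of 2.55 on the log2 scale. Fbp1, which encodes fructose bisphosphatase, went from 617 and 615 to 31 and 39.1 CPM (-4.14 ± 0.14), and Pck1, the rate-controlling carboxykinase, from 517 and 545 to 66.5 and 67.8 CPM. Both ischemic sections lay below both normal sections for Fbp1 and Pck1, and 2 of the 5 remained called when the 8 genes ranked the spots, with Pck1 (log2 -0.15, adjusted p = 0.284) and G6pc (-0.10, adjusted p = 0.652) among those that did not. Of 12 mitochondrially encoded respiratory genes, 6 fell and 1 rose with total UMI scaling, with a median log2 fold change of -0.27. With TMM scaling 9 fell and 3 did not pass, with a median of -0.66. Here mt-Nd2 went from 5051 and 3309 to 1554 and 1824 CPM (-1.31 ± 0.17), and mt-Co3 from 12735 and 9109 to 6233 and 7392 CPM (-0.68 ± 0.19, adjusted p = 0.00164), a call lost without ischemic section 1 (0.264) and without ischemic section 2 (0.107). The count fell to 4 without ischemic section 1.

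Of 15 glycolytic and hypoxia-responsive genes, 5 (33.3%) were higher, near the 34.5% of all genes tested, and 8 (53.3%) were lower, against 32.2%. The lower calls dropped to 2 with total UMI scaling and were also fewer without ischemic section 1. Adm, which encodes the vasodilator adrenomedullin, rose from 1.41 and 1.85 to 53.1 and 50.7 CPM (5.01 ± 0.22, adjusted p = 4.38e-27), and the glucose carrier Slc2a1 rose from 20.1 and 30.6 to 110.3 and 121 CPM (2.23 ± 0.13). Pkm, pyruvate kinase of glycolysis, rose from 207 and 211 to 419.9 and 420.3 CPM. Ldha, which encodes lactate dehydrogenase A, went from 949 and 824 to 613 and 591 CPM, a call lost with total UMI scaling, and Bnip3, a mitophagy receptor, from 156 and 150.0 to 42.5 and 38.7 CPM (-1.91 ± 0.11). Hk2, a hexokinase gene, had 1 count in the normal spots and 35 in the ischemic spots, a ratio of 29.8 (95% counting interval 5 to 1209).

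Of 9 transcription factors and coactivators of proximal tubule identity, 7 fell, 1 rose and 1 did not pass. Hnf4a, a master regulator of the proximal tubule, went from 195 and 194 to 40.5 and 38.4 CPM (-2.30 ± 0.11, adjusted p = 1.56e-24), and Ppargc1a, a coactivator of mitochondrial genes, from 16.5 and 24.8 to 3.28 and 6.45 CPM. Pax8, a nephron lineage factor, rose from 52.5 and 51.6 to 88.1 and 78.9 CPM (0.68 ± 0.11), but stood at -0.07 (adjusted p = 0.631) with the 8-gene ranking. The list had 6 lower under the 8 genes and 7 under each of the other 2 rankings, while its median went from -1.26 to -0.48 under the 8 genes.

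In contrast, all 23 genes of the tubular injury list rose, against 34.5% of all genes tested, with a median log2 fold change of 4.43. Like the other lists, this list was chosen with earlier results of these data known, so its count is a description. Havcr1, at chr11:46735080-46779578, was at 2.35 and 4.4 CPM in the normal sections and 2178 and 2286 CPM in the ischemic sections (9.44 ± 0.23, adjusted p = 1.35e-37). Lcn2, an iron-siderophore carrier released by injured tubules, rose from 3.92 and 4.86 to 1875 and 1652 CPM (8.67 ± 0.21). Spp1, which encodes the matrix protein osteopontin, rose from 237 and 322 to 22824 and 21731 CPM (6.32 ± 0.25). In all 3 the ischemic sections lay far above the normal ones, with no overlap, and close to each other.

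The keratin genes Krt20, Krt18 and Krt8 rose. Krt20 had no count in the normal spots and 556 and 624 CPM in the ischemic spots, at least 1013-fold higher against a floor of 3 counts per section. Krt18 rose from 9.25 and 12.3 to 350.4 and 346 CPM (5.05 ± 0.15), and Krt8, its partner, from 107 and 101 to 1155 and 1256 CPM (3.53 ± 0.14). The protease inhibitor gene Timp1 rose from 1.41 and 2.08 to 389 and 403 CPM (7.86 ± 0.20), and Clu, which encodes the secreted chaperone clusterin, from 32 and 36.8 to 2774 and 2466 CPM (6.26 ± 0.18). Of the calcium-binding genes, S100a6 rose from 97.6 and 179 to 5071 and 5188 CPM (5.23 ± 0.21) and Anxa2, a membrane-binding annexin, from 40 and 42.1 to 773 and 829.7 CPM (4.29 ± 0.14).

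Plin2, which coats lipid droplets, rose from 95.4 and 77.8 to 1219.8 and 1304 CPM (3.86 ± 0.15). The chemokine genes Cxcl1 and Ccl2, which draw neutrophils and monocytes, rose from 0.313 and 0.926 to 58.9 and 64.9 CPM and from 1.41 and 2.31 to 26.3 and 22.9 CPM. Fgb, a fibrinogen chain, had 2 counts in the normal and 369 in the ischemic spots, a ratio of 157 (95% counting interval 43.1 to 1300). Cd44, a hyaluronan receptor, rose from 1.57 and 1.62 to 35.4 and 34.1 CPM (4.43 ± 0.24). The smallest rise of the list was that of Vcam1, an adhesion molecule, from 10.3 and 7.87 to 14.1 and 18.3 CPM (0.78 ± 0.20, adjusted p = 0.000466). Vcam1 lost the call with the 8-gene ranking (log2 0.21, adjusted p = 0.445). The list kept 22 of 23 genes called higher when the 8 genes ranked the spots and 23 under the other 2 rankings, and its median ranged over 4.21 to 4.26 under the 3.

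**Figure D3:**
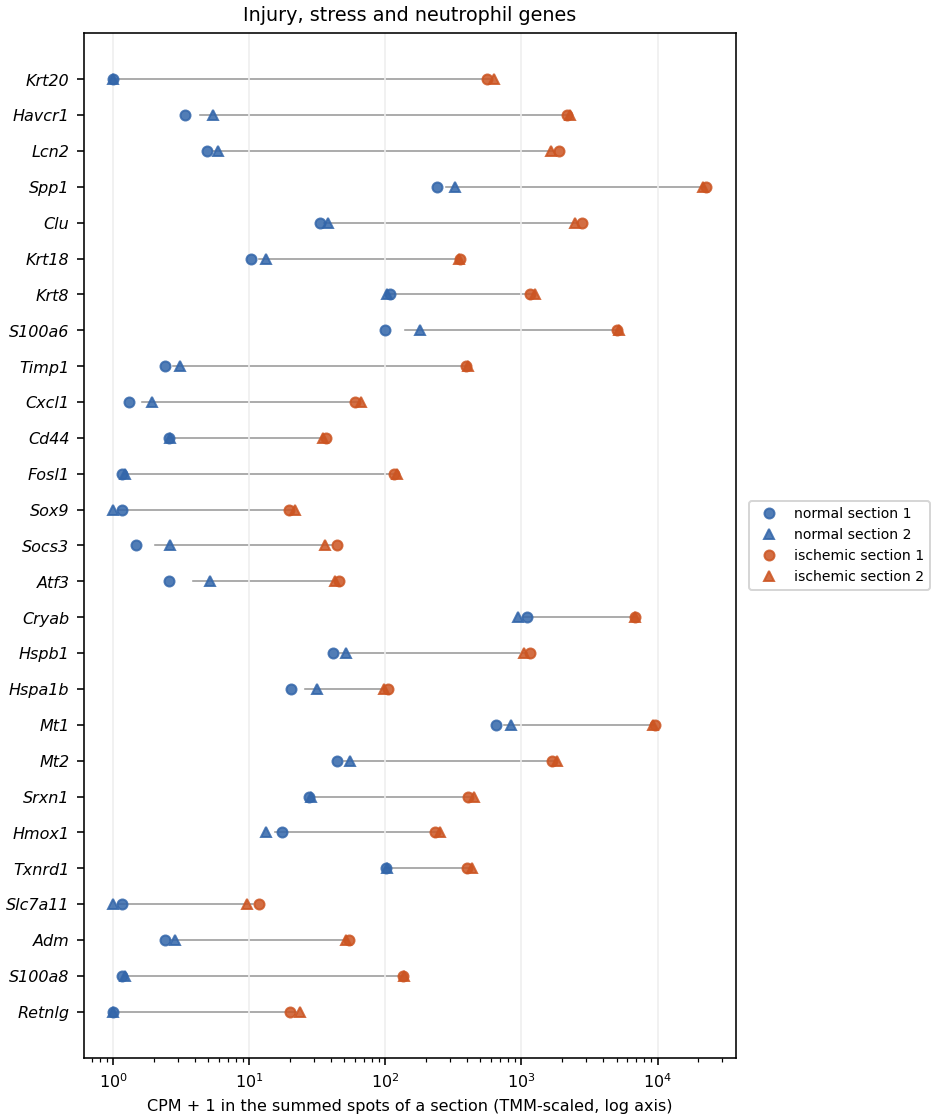
Level in each section of injury, stress and neutrophil genes, as CPM + 1 of the summed chosen spots on a log axis, with circles for section 1, triangles for section 2, blue for normal and orange for ischemic, and a line joining the means of the conditions. The orange points lie to the right of the blue points for every gene drawn, as for Havcr1 with 2.35 and 4.4 CPM against 2178 and 2286 CPM.

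Of 14 genes of stress and repair, 13 rose and 1 did not pass. Fosl1, an AP-1 subunit, had 2 counts in the normal and 1486 in the ischemic spots, a ratio of 632 (95% counting interval 175 to 5221). Sox9, a factor of regenerating tubules, had 1 count and 245 counts, a ratio of 208 (37 to 8261). Socs3, an inhibitor of cytokine signalling, rose from 0.47 and 1.62 to 43.4 and 35.3 CPM (5.37 ± 0.27). Atf3 rose from 1.57 and 4.17 to 45 and 41.8 CPM, Klf6 from 6.27 and 11.1 to 97.9 and 99.3 CPM and Myc from 2.51 and 4.86 to 53.1 and 50.2 CPM, and Jun, the partner of Fos proteins, from 16.1 and 24.1 to 59.2 and 59 CPM. The conditions did not overlap for any of these 7 genes.

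Heat shock and folding genes were mostly higher, 9 of 12, with 1 lower and a median log2 fold change of 0.70. Cryab, a small heat shock protein at chr9:50751325-50756636, was already at 1094 and 944 CPM in the normal spots and reached 6876 and 6805 CPM in the ischemic spots (2.75 ± 0.17, adjusted p = 2.48e-20). Its level depended on the ranking: unscaled by TMM, the ischemic spots held 7766 and 7750 CPM by the rule and 2291 and 2463 CPM with the 8-gene ranking, where all spots of those sections held 2563 and 2536 CPM, and the fold change was 1.29 with the 8 genes. Hspb1, another small heat shock protein, rose from 40.1 and 50.7 to 1149 and 1038 CPM (4.60 ± 0.15). Hsp90aa1, the inducible cytosolic chaperone, rose from 313 and 286 to 606 and 636 CPM, and Hspa5, the chaperone of the endoplasmic reticulum, from 229 and 220.1 to 386 and 429 CPM.

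Hspa1b rose from 19.1 and 30.3 to 104 and 97 CPM and Hspa1a from 25.5 and 29.4 to 61.2 and 56.5 CPM, a near-identical pair whose reads cannot be apportioned with certainty, and Hspa1a stood at -0.23 (adjusted p = 0.208) with the 8-gene ranking. Hspe1, a chaperonin of mitochondria, went from 1197 and 1167 to 846 and 808 CPM (-0.52 ± 0.13), a call lost with total UMI scaling, without ischemic section 1 (adjusted p = 0.0522) and without ischemic section 2 (0.0943). Hspe1 also lost the call with the 8-gene (0.130) and the 3-carrier ranking (0.0772). With total UMI scaling the list had 11 higher and none lower, and with the 8-gene ranking 6 were higher and none lower with a median of 0.23. Of the 9 list genes with a RefSeq window, 3 held the heat shock letters described above for Krt20, namely Hspd1, Hspe1 and Hsph1. None of these 3 was called higher with TMM scaling, whereas with total UMI scaling Hspd1 (0.23, adjusted p = 0.0397) and Hsph1 (0.32, adjusted p = 0.0178) passed as higher. Without normal section 2, by contrast, Hspd1 stood lower, at -0.26.

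Of 15 oxidative stress genes, 8 (53.3%) rose, against 34.5% of all genes tested, and 4 (26.7%) fell, under the 32.2% of all genes tested. Srxn1 rose from 26.6 and 27.3 to 406 and 444 CPM (3.98 ± 0.13, adjusted p = 5.63e-32), Hmox1, which encodes heme oxygenase, from 16.5 and 12.3 to 229.6 and 249.7 CPM (4.03 ± 0.14), and Txnrd1, which reduces thioredoxin, from 100 and 101 to 396 and 434 CPM (2.04 ± 0.12). Slc7a11, the cystine and glutamate exchanger, had 1 count in the normal and 123 in the ischemic spots, a ratio of 105 (95% counting interval 18.4 to 4164). Among the 4 that fell, Gpx4, which reduces lipid peroxides, went from 4849 and 3654 to 1114 and 1093 CPM (-1.95 ± 0.16) and Sod2, the mitochondrial dismutase, from 682 and 621 to 212 and 215 CPM. Gpx3, the plasma glutathione peroxidase, was at 5317 and 4692 CPM in the normal sections and 6271 and 5689.8 CPM in the ischemic sections (adjusted p = 0.183), and passed as higher with total UMI scaling, without normal section 1 and under all 3 other rankings. The antioxidant letters seen in the Srxn1 promoter were present in 5 of the 12 list genes with a window, G6pdx, Gclm, Prdx1, Srxn1 and Txnrd1, and 3 of these 5 rose. Gclm and Prdx1 did not pass, but with total UMI scaling they passed as higher, by 0.41 (adjusted p = 0.00124) and 0.44 (adjusted p = 0.000108).

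Of 7 genes of metal handling, 5 rose and 1 fell. The metallothionein genes Mt1 and Mt2 rose from 647 and 830.3 to 9568 and 9314 CPM (3.68 ± 0.19) and from 42.8 and 53.9 to 1666 and 1829 CPM (5.19 ± 0.16). Fth1, the ferritin heavy chain, was at 28698 and 24198 CPM in the normal sections and 29873 and 27800.5 CPM in the ischemic sections (adjusted p = 0.641), and stood at -0.05 without normal section 2. It passed as higher with total UMI scaling (log2 0.50, adjusted p = 7.93e-06), without normal section 1 (0.25, adjusted p = 0.0127), and with the 8-gene (0.86, adjusted p = 0.000183) and the 3-carrier ranking (0.57, adjusted p = 0.0224). Ftl1, the light chain, rose from 4169.8 and 3208 to 7715 and 6742 CPM, and Slc11a2, an iron importer, fell from 38.9 and 46.3 to 27.4 and 26.3 CPM, a call lost with total UMI scaling.

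Of 10 p53 target genes, 7 rose and none fell. Cdkn1a, the cell cycle inhibitor p21, rose from 5.01 and 4.17 to 82.6 and 85.7 CPM (4.17 ± 0.16, adjusted p = 5.3e-29), and Gdf15, a stress cytokine, from 20.7 and 28.2 to 323 and 301 CPM (3.70 ± 0.14). Ccng1 was at 222 and 203 CPM in the normal sections and 191 and 188 CPM in the ischemic sections and did not pass (adjusted p = 0.183), and it turned to 0.21 with total UMI scaling. It passed as lower without normal section 2 (-0.29, adjusted p = 0.0163) and when spots were ranked without neighbours (-0.29, adjusted p = 0.0192). The count of p53 targets called higher fell to 4 without ischemic section 1. Of 12 cell cycle genes, 3 lay below the count filter, 8 rose and 1 did not pass. The replication genes Rrm2 and Mcm5 rose from 1.41 and 2.31 to 14 and 11.3 CPM and from 3.29 and 3.47 to 18.1 and 19.2 CPM, and Ccnd1, the cyclin of early cell cycle entry, from 48.7 and 51.2 to 111 and 114 CPM. The mitotic genes Mki67, Ccnb1 and Ccnb2 were among those too low to test, and Top2a, at 1.1 and 1.62 CPM in the normal sections and 1.86 and 2.15 CPM in the ischemic sections, did not pass.

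Markers of other cells in the same spots moved too. All 4 genes of the thick ascending limb fell, and their summed level was 5162 and 6387 CPM unscaled by TMM in the normal spots and 2671 and 2450.2 in the ischemic spots. Slc12a1, its salt carrier, went from 605 and 732 to 29.7 and 27.6 CPM, and Umod, which encodes uromodulin, from 5202 and 5574 to 2278 and 2068 CPM. Unscaled by TMM, Umod in the spots not chosen was at 2803 and 3098 in normal and 2768 and 2906 CPM in ischemic sections. Slc12a1 there was at 324 and 492 and at 60.4 and 62.4 CPM. Umod in chosen spots was at 1.52 and 1.69 times its other-spot level in normal and 0.93 and 0.81 times in ischemic sections. The top 15% by the 4 thick limb genes held 29.1% and 12.4% of the chosen normal but 0.556% and 0.510% of the chosen ischemic spots. Of 4 markers of the cortical convoluted tubule tested, 3 fell and 1 rose, with summed levels of 197 and 269 and 98.8 and 104. With the 8-gene ranking 3 of 5 rose and 1 fell, with a median of 0.70, and with the 3-carrier ranking, as with total UMI scaling, 1 rose and 1 fell. Collecting duct markers summed to 337 and 363 and 364 and 272, with 3 of 4 called lower. With total UMI scaling, without ischemic section 2 and ranked without neighbours only 1 of 4 was called lower in each case. Among the 3, Hsd11b2, which inactivates glucocorticoids, went from 40.6 and 42.4 to 13 and 10.4 CPM, and Aqp2, the vasopressin-regulated water channel, from 183 and 149 to 154 and 124 CPM, a call lost with DESeq2 (adjusted p = 0.138), no filter (0.157), the top 10% of spots (0.667), thinned sums (0.0748), without normal section 1 (0.517) and without ischemic section 2 (0.631). Its direction turned to 0.12 by total UMI scaling and to 0.20 when spots were ranked without neighbours.

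The 5 neutrophil genes that could be tested were called higher, and they had passed the count filter through the ischemic spots. With no filter 6 of 7 were called higher, with a median log2 fold change of 3.25, and 3 of the 4 tested were called with the 8-gene and the 3-carrier rankings. S100a8 had 2 counts in the normal and 1696 in the ischemic spots, a ratio of 721 (95% counting interval 199 to 5958), S100a9 rose from 0.784 and 0.463 to 134 and 157 CPM, and Retnlg had no count in the normal spots, at least 35.9-fold higher. Summed over the 7 neutrophil genes, the level was 3.72 and 5.65 CPM unscaled by TMM in the normal and 345 and 378 in the ischemic spots. The defining genes Cxcr2 and Ly6g lay below the count filter. Of 8 macrophage genes, 2 rose and 5 fell: Cd68 rose from 4.7 and 3.94 to 35.7 and 35 CPM, whereas Cd74, the invariant chain of class II antigen presentation, went from 369.8 and 348 to 46.1 and 59 CPM and Csf1r from 96.7 and 86.6 to 14.1 and 14.2 CPM. With total UMI scaling 2 rose and 2 fell, with a median of -0.09 in place of -0.47, and ranked without neighbours 2 rose and 3 fell of 9.

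The 6 T cell genes together summed to 8.61 and 8.05 CPM unscaled by TMM in normal and 1.29 and 2.25 in ischemic spots. The 3 that could be tested were called lower, and they had passed the count filter through the normal spots. With no filter 3 of 6 were called lower. None could be tested in the top 10% of spots, ranked without neighbours or with the 8-gene ranking. Cd3d had 24 counts in the normal and 3 in the ischemic spots, Cd3g 25 and 2, and Trac was at 3.92 and 2.31 CPM in the normal sections and 0.428 and 0.717 CPM in the ischemic sections, so the T cell levels rest on very few molecules. Fibroblast genes rose in 5 of 6 cases, with Col3a1 from 20.2 and 16.4 to 179 and 183 CPM, while Dcn, which encodes the proteoglycan decorin, fell from 63.3 and 44.9 to 13 and 10 CPM. Endothelial genes rose in 4 of 6 cases, with Cdh5, a junction cadherin, from 9.72 and 11.8 to 23 and 24.2 CPM, and Plvap, of fenestrated vessels, at 123 and 127 CPM in the normal sections and 131 and 143 CPM in the ischemic sections, not passing. Plvap turned to -0.01 and -0.03 with the 8-gene and the 3-carrier rankings and passed as higher with total UMI scaling (0.50, adjusted p = 0.000673). The endothelial count was 2 of 6 without normal section 1. The 4 hemoglobin genes, whose copies share reads, all fell, and their sum went from 2417 and 1566 to 479 and 649.8 CPM unscaled by TMM. Of the podocyte genes, Podxl and Nphs1 were called higher and neither passed with DESeq2 or without normal section 1, and Slc12a3 of the distal convoluted tubule did not pass (adjusted p = 0.987), although it was higher by 2.98, 1.62 and 1.24 under the 8-gene ranking, the 3-carrier ranking and the rule without Serpina1f. In the distal list 1 of 1, 2 of 2 and 2 of 2 genes tested were higher under the 8-gene ranking, the 3-carrier ranking and the rule without Serpina1f, and in the endothelial list 2, 2 and 3 of 6. What part these cells have in the levels of the other lists was not tested.

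The 10 largest rises by fitted fold change had no count in the normal spots. After Krt20, the level in the ischemic spots was 389 and 312 CPM for Gsta1, a glutathione transferase, at least 602-fold higher than the floor, and 339 and 298 for Slpi, a leukocyte protease inhibitor, at least 547-fold. Crct1, an epidermal gene, reached 114 and 113 CPM, at least 195-fold, and Chil3, a chitinase-like protein of myeloid cells, 43.4 and 33.9 CPM, at least 66.3-fold. Others were Gm3776, Sprr2f, 1700001F09Rik and Grp, a neuropeptide, with bounds of 158, 90, 58.8 and 34.9. Gsta1 with Gm3776 and Sprr2f belong to families of near-identical copies, so their counts are uncertain.

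The 10 largest falls were taken among genes with at least 20 CPM in the normal spots. Egf, which encodes the epidermal growth factor precursor of distal tubules, went from 651 and 840.3 to 5.85 and 6.63 CPM (-6.90 ± 0.18, adjusted p = 1.42e-36). Eci3, a peroxisomal isomerase of fatty acid oxidation, went from 529.8 and 464 to 6.99 and 8.78 CPM (-5.99 ± 0.16), and Fam107a, an actin-associated gene, from 173 and 163 to 2 and 2.87 CPM (-6.13 ± 0.17). Selenbp2, a selenium-binding protein, had 257 counts in the normal and 1 in the ischemic spots, a ratio of 0.0033 (95% counting interval 8.34e-05 to 0.0186). Nat8f6 went from 70.1 and 73.4 to 0.428 and 0.717 CPM, and BC024386 from 53 and 61.6 to 0.428 and 0.717 CPM. With Mep1b, given above, 4930434B07Rik, Gm47708 and Itih2, a hyaluronan-binding serum protein, completed the 10.

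The second comparison asked where the change in these spots differed from that in other zones of the same sections. Cortex spots (1543) were the top 15% by Slc5a2, Slc5a12, Slc34a1 and Slc7a7, inner stripe spots (1376) the top 15% by Slc12a1, Umod, Cldn10 and Ptger3 without those already chosen, and the difference of change was tested in 1 edgeR model with the section as a block. Of 13046 genes, 1366 (10.5%) changed more upward in the outer stripe spots than in cortex spots and 1827 (14%) more downward, and 747 (5.73%) and 525 (4.02%) did so against inner stripe spots. Leaving out spots shared with the outer stripe removed 114 of 392 and 50 of 402 inner stripe spots in the normal sections but only 2 of 360 and 2 of 392 in the ischemic sections, so that the inner stripe set was trimmed unequally. These counts of genes were unstable: without ischemic section 1 the totals were 961 against cortex and 188 against inner stripe, and without ischemic section 2 they were 1115 and 134, in place of 3193 and 1272. Without normal section 1 or 2 the inner stripe total rose to 2076 and 2109. The normal inner stripe spots also held straight tubule RNA, with Slc7a13 at 586 and 179 CPM, which limits that contrast. CPM in the paragraphs on zones are scaled over all 12 sums and differ slightly from those above.

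Genes of fatty acid oxidation differed between the zones by an amount that depended on the ranking. Of 19 genes, 15 changed more downward in the outer stripe spots than in cortex spots and none more upward, and all 5 gluconeogenic genes did so. Acadl, the long-chain dehydrogenase, went from 561 and 533 to 301 and 321 CPM in outer stripe spots and from 255 and 242 to 403 and 420.1 in cortex spots, a difference of -1.54 ± 0.19 on the log2 scale (SE, adjusted p = 0.000174). Pck1 went from 584 and 592 to 73.2 and 74.3 in outer stripe spots and from 884 and 836 to 1246 and 1255 in cortex spots (-3.54 ± 0.37, adjusted p = 7.65e-05). Pex11a, which multiplies peroxisomes, went from 37.4 and 31.2 to 18.1 and 20.8 and from 27.7 and 22.9 to 87.8 and 89.7 (-2.64 ± 0.19). For Pck1 and Pex11a the cortex levels in the ischemic sections lay above the normal ones while the outer stripe levels lay below. For Pex11a the outer stripe order depended on the ranking: its level went from 34.5 and 31.8 to 88.8 and 86.2 CPM with the 8 genes, from 33.5 and 31.3 to 51.4 and 45.9 CPM with the 3 carriers, and from 36.5 and 32.6 to 37.0 and 37.8 CPM with the rule without Serpina1f.

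Of the P450 genes, Cyp4a10 fell in outer stripe and was higher in ischemic cortex spots, while Cyp4a14 was higher in both zones and rose less in the outer stripe. Cyp4a10 had 402 and 338 CPM in normal and 98.6 and 95.3 in ischemic outer stripe spots, against 77 and 59 and 559.8 and 539 in cortex spots (-4.98 ± 0.37, adjusted p = 8.63e-06). Cyp4a14 had 6.73 and 6.03 CPM in normal and 15.1 and 15.5 in ischemic outer stripe spots. It had 4.71 and 4.24 CPM in normal and 282 and 256 in ischemic cortex spots (-4.65 ± 0.48). Against inner stripe spots none of the 19 oxidation genes and none of the 5 gluconeogenic genes passed in either direction. Fitted with other rankings, an alternative added after the data had been seen, 4 of 19 oxidation genes changed more downward than in cortex spots with the 8 genes, 11 with the 3 carriers and 14 with the rule without Serpina1f, and 13, 8 and 4 changed more upward than in inner stripe spots. Of the 5 gluconeogenic genes 2 changed more upward than in cortex spots with the 8 genes, and 3 more downward with each of the others. Against inner stripe spots 5, 5 and 4 of the 5 changed more upward under these 3 rankings, where the rule gave none. Pck1 differed from cortex by -0.72 (adjusted p = 0.202) and Pex11a by -0.21 (adjusted p = 0.568) with the 8 genes, where Acadl (-0.91), Cyp4a10 (-2.86) and Cyp4a14 (-1.88) still passed as lower.

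**Figure D4:**
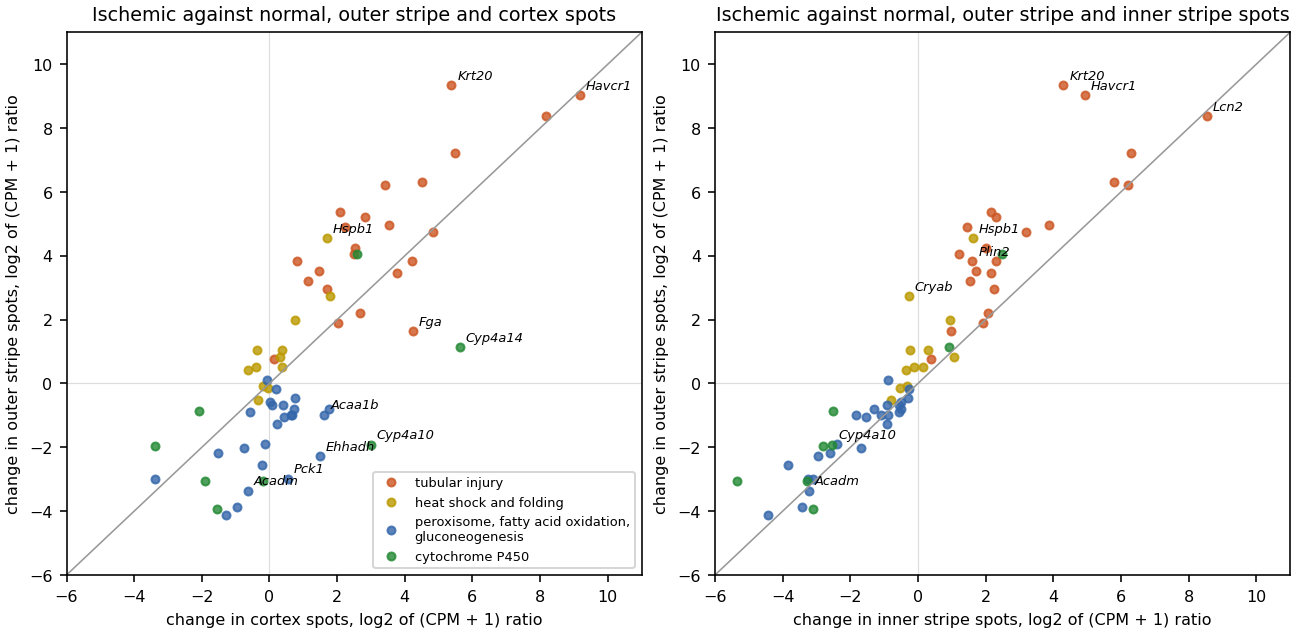
Change from normal to ischemic, as the log2 ratio of mean CPM + 1, in outer stripe spots (vertical axes) against cortex spots (left, horizontal axis) and inner stripe spots (right, horizontal axis), with 1 point per gene coloured by list and a diagonal of equal change. Against cortex, the points of the oxidation and gluconeogenesis lists lie mostly below the diagonal, and Krt20 and Hspb1 lie above it.

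Of the 23 injury genes, 14 rose more in the outer stripe spots than in cortex spots, 2 less and 7 showed no called difference, and 13 rose more than in inner stripe spots. Krt8 went from 121 and 110.1 to 1273 and 1377 CPM in outer stripe spots, from 102 and 102 to 280.2 and 290.2 in cortex spots and from 103 and 109 to 336 and 362 in inner stripe spots, with differences of 2.04 ± 0.14 and 1.80 ± 0.14. Fga, a fibrinogen chain, is 1 of the 2 that rose less than in cortex: it reached 116 and 129 CPM in ischemic outer stripe spots and 406 and 453 in ischemic cortex spots (-2.63 ± 0.20, adjusted p = 9.85e-06). S100a11 was the other (-0.47 ± 0.13). Havcr1 rose more than in inner stripe spots (4.07 ± 0.29, adjusted p = 1.63e-05), where it reached 120.4 and 120.3 CPM, and its difference from cortex was not called (-1.35 ± 0.39, adjusted p = 0.106). Lcn2 reached 7048 and 8214 CPM in ischemic inner stripe spots, with no called difference from either zone. The summed level of the list, unscaled by TMM, was lower in the chosen than in the other spots of every section. It was 1006 and 1315 against 2214 and 3612 CPM in normal sections, and 48335 and 47325 against 56470 and 59889 CPM in ischemic sections. In ischemic sections Spp1 was at 0.666 and 0.606 of its other-spot level, whereas Krt20 was at 5.08 and 5.29 times and Havcr1 at 2.15 and 2.29 times.

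Heat shock genes changed more upward in the outer stripe spots in 7 of 12 cases against each zone. Hspb1 reached 1265 and 1138 CPM in ischemic outer stripe spots, 131 and 119 in cortex and 353 and 363 in inner stripe spots, with differences of 2.87 ± 0.20 and 2.91 ± 0.20 (adjusted p = 7.65e-06 and 1.01e-05). Cryab had 1014 and 842 CPM in normal and 792 and 747 in ischemic inner stripe spots, so its rise in the outer stripe differed by 3.0 ± 0.15. Srxn1 and Adm also rose more than in either zone, Srxn1 by 1.62 ± 0.16 and 2.22 ± 0.18 and Adm by 3.87 ± 0.29 and 4.19 ± 0.43. Of the stress and repair genes, 9 of 14 rose more than in cortex and 5 more than in inner stripe spots, counts that became 4, 6 and 7 and 0, 1 and 4 with the 8 genes, the 3 carriers and the rule without Serpina1f. With the 8-gene ranking 10 of 23 injury and 2 of 12 heat shock genes rose more than in cortex and 12 and 4 more than in inner stripe spots, and Cryab stood at -0.56 against cortex (adjusted p = 0.0602) where the rule gave 0.92. Krt8, Hspb1, Srxn1 and Adm passed as higher against both zones under each of the 3 other rankings, but with the 8 genes the differences against cortex and inner stripe were 0.93 and 0.80 for Krt8 and 1.34 and 1.38 for Hspb1, where the rule gave 2.04 and 1.80, and 2.87 and 2.91.

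Of the 9 carriers of organic ions and drugs, 2 changed more upward than in cortex spots and 5 more downward. Against inner stripe spots 3 changed more upward and none more downward. The cortex counts became 3 and 0 with the 8 genes, 3 and 1 with the 3 carriers and 3 and 2 with the rule without Serpina1f. In the same order, 7, 7 and 5 of 9 changed more upward than in inner stripe spots. Slc6a18 went from 440.1 and 193 to 105 and 82.4 CPM in inner stripe spots, and its change in outer stripe spots was higher by 1.83 ± 0.28 (adjusted p = 0.0025), whereas in cortex spots it went from 203 and 174 to 439 and 454. Of the other straight tubule genes, 6 of 8 changed more downward than in cortex spots, Slc6a18 among them, and against inner stripe spots 3 of 8 changed more upward and 1 more downward. Cyp4b1, a P450 gene, went from 3917 and 3138 to 775 and 887 CPM in cortex spots and from 321 and 331 to 173 and 186 in outer stripe spots (1.21 ± 0.27, adjusted p = 0.00718). With the 8 genes its outer stripe level instead went up, from 439 and 527 to 738 and 818 CPM, and with the 3 carriers from 377 and 415 to 453 and 471 CPM, so that the difference from cortex was 2.88 and 2.29.

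Within a section, Havcr1 and Krt20 had a UMI in nearly every chosen ischemic spot. Havcr1 had a UMI in 99.4% and 99% of the ischemic spots and in 3.32% and 4.23% of the normal spots, and Krt20 in 95% and 94.4% of the ischemic spots and in 0 of 392 and 0 of 402 normal spots, which allows shares of up to 0.765% and 0.746% of spots with a UMI. Slc7a13 had a UMI in 99.7% and 97.8% of the normal spots but in 31.1% and 25.3% of the ischemic spots. Across ischemic spots the coefficient of variation was 45.5% and 46.7% for Havcr1, 68.6% and 80.9% for Spp1 and 184% and 234% for Slc7a13. Counting noise differs with level, so these spreads are not compared with a test.

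Divided into 3 equal parts by marker share, the top part of ischemic spots had 2.38 and 2.25 times the Serpina1f level of the bottom part, against 1.16 and 1.20 times in the normal spots, which the ranking itself sets. Among genes the rule did not use, Slc22a7 differed 1.79- and 2.01-fold and Slc6a18 1.74- and 1.51-fold between the top and bottom parts of the ischemic spots. Havcr1 was 1.34 and 1.32 times as high in the top part as in the bottom part, while Spp1 was at 0.711 and 0.691 and Slc12a1 at 0.784 and 0.497. Across the ischemic spots, Spearman's rho between marker share and the summed injury genes was -0.27 and -0.25, and with the 8 other straight tubule genes 0.54 and 0.56, over 360 and 392 spots that share a library and overlapping neighbours. In the chosen normal spots these were -0.04 and -0.24 with the injury genes and 0.41 and 0.54 with the 8 genes. Over all spots of a section, rho with the 8 genes was 0.89 and 0.87 in the normal sections but 0.30 and 0.37 in the ischemic ones, and rho with the injury genes was -0.53 and -0.57 against -0.10 and -0.13.

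**Figure D5:**
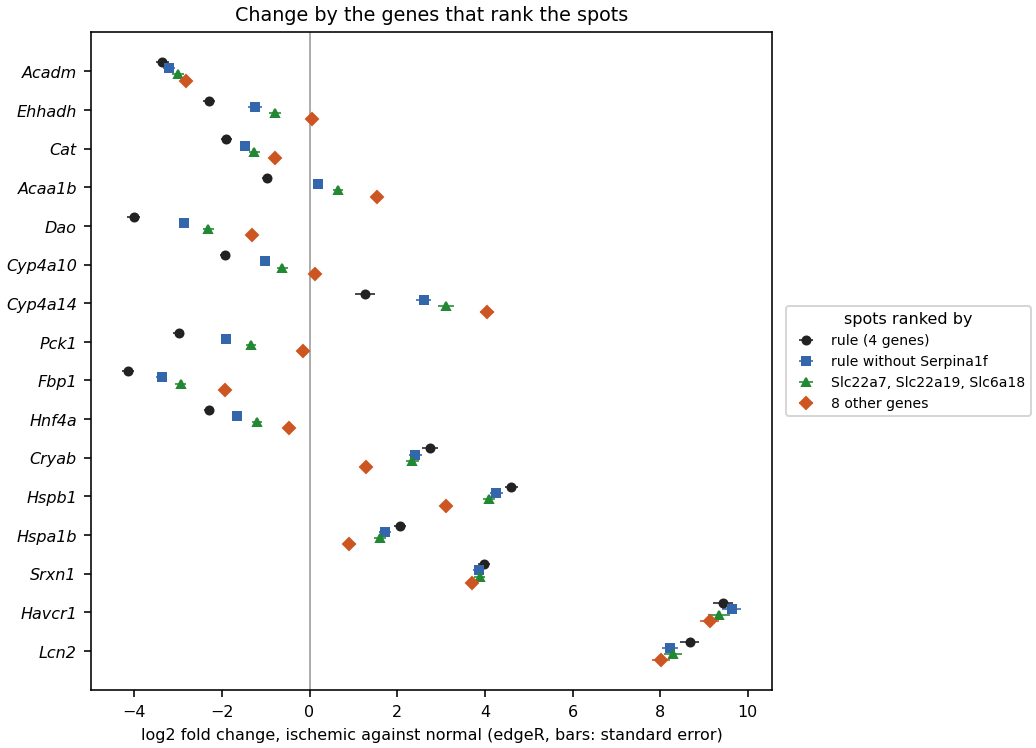
Log2 fold change, ischemic against normal, of 16 genes when spots were ranked by the 4 genes of the rule, by the rule without Serpina1f, by Slc22a7, Slc22a19 and Slc6a18, or by 8 other straight tubule genes, with bars for the standard error. Acaa1b moves from -0.97 to 0.19, 0.65 and 1.53 over the 4 rankings in that order, while Havcr1 and Lcn2 stay far above 0.

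The plot of changes by ranking shows which genes depended on the choice of ischemic spots. The injury list had a median between 4.21 and 4.43 under the 4 rankings, and the 4 thick limb genes were called lower under each. The list medians of fatty acid oxidation, gluconeogenesis, organic ion carriers and cytochrome P450 were 0.03, -0.15, 0.15 and 0.38 under the 8-gene ranking, whose ischemic spots held more Slc34a1 and Acy3. With that ranking 5953 of the 8188 called genes were called with the same sign, with the 3-carrier ranking 7011, and with the rule without Serpina1f 7423.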

How the data were processed

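Visium libraries of 4 mouse kidney sections were analysed from the deposited count matrices, which hold raw UMI counts per gene and spot that the authors made with Space Ranger 1.3.0, on build mm10 per the submitters' processing notes. The annotation release was not stated in the sources used. No normalization had been applied. Barcodes were kept where the deposited position list marks tissue, and no other spot was removed.

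Counts of the chosen spots were summed per section, so that depth was 4598123 to 7785912 UMIs per sum. Sums were tested with edgeR 4.0.16 (TMM scaling, filterByExpr, quasi-likelihood test) with Benjamini-Hochberg adjustment over all genes tested. The difference of change between zones was the interaction in 1 model of 12 sums with the section as block. The scripts were tested on simulated data. Counting intervals are exact at 95% and, like the floor of 3 counts, cover counting error only. Aldoa and Ddit3, each the symbol of 2 IDs, were left out of list counts.

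Members and gene lists were chosen with earlier results of these data known. Named genes are the 4 of the rule, examples of each list by highest mean CPM and largest change, the 10 largest changes each way with at least 20 CPM in the higher condition, and the 5 largest zone differences each way. Some genes that these rules name are not reported here. Other genes named were chosen for their role after their values had been seen. Alternatives were DESeq2 1.42.0, total UMI scaling, no filter, a replicate block, other spot shares (10% and 20%), ranking without neighbours, a minimum of 500 UMIs per spot, thinned sums, leaving out each section, and 3 other rankings of spots, 2 of them added after the data had been seen.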

Additional observations from a re-analysis of the deposited data

Results flagged for a closer look

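The results below stood out because the change from normal to ischemic differed between outer stripe spots and another zone of the same sections, by edgeR's test of the difference itself with Benjamini-Hochberg adjustment. They are the 5 largest differences each way against each zone, among called genes with a mean of at least 20 CPM in any zone and condition. That level could lie in a zone outside the comparison. Levels are mean CPM of the 2 sections, first normal and then ischemic, scaled over all 12 zone sums.

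Genes that changed more upward than in cortex spots were Slpi, at 0 to 350.1 in outer stripe and 0.282 to 9.14 in cortex spots (adjusted p = 0.0361), and Gsta1, at 0 to 385 and 1.51 to 99.3 (adjusted p = 0.000392). Mall, a membrane raft protein, stood at 0 to 12.9 and 0.612 to 1.88 (adjusted p = 0.00489), and Gm3776 at 0 to 101 and 0.424 to 25.2 (adjusted p = 0.021). No fold is given for these 4, which had no count in normal outer stripe spots. The gene 3300005D01Rik stood at 0.251 to 49.2 and 2.45 to 7.86 (adjusted p = 0.000282). In inner stripe spots Mall went from 0.145 to 20.1, a higher ischemic level than in outer stripe spots.

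Among genes that changed more downward than in cortex spots, Slc2a5, a fructose carrier, stood at 88.4 to 3.46 in outer stripe and 53.5 to 72.6 in cortex spots (-5.09 ± 0.38 on the log2 scale, SE, adjusted p = 8.63e-06). Cyp4a10 stood at 370.1 to 96.9 and 68 to 549.5 (-4.98 ± 0.37, adjusted p = 8.63e-06), and Cyp4a14 at 6.38 to 15.3 and 4.47 to 269 (-4.65 ± 0.48, adjusted p = 7.27e-05). Nccrp1 stood at 14.6 to 0.0983 and 1.22 to 0.267 (adjusted p = 0.0392), and Aqp4, a water channel, at 51.4 to 5.93 and 0.565 to 1.47 (-4.46 ± 0.68, adjusted p = 0.000738). In inner stripe spots Nccrp1 also fell, from 51.6 to 0.724, and its ischemic levels were very low in each zone.

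Against inner stripe spots, Krt20 stood at 0 to 648 in outer stripe and 0.289 to 24.5 in inner stripe spots (adjusted p = 0.0115) and Gsta1 at 0 to 385 and 0.415 to 29 (adjusted p = 0.0102). Slc51a, a bile acid carrier subunit, stood at 3.97 to 2.5 and 5.8 to 0.109 (adjusted p = 0.0169), Gm8126 at 2.71 to 58.6 and 2.47 to 2.1 (4.73 ± 0.57, adjusted p = 0.000581), and Serpina1b, whose copies share reads, at 107 to 50.1 and 38.7 to 0.706 (4.61 ± 0.45, adjusted p = 0.000141). Slc51a was low in both of these zones and stood at 136.6 to 31.3 in cortex spots.

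In the other direction, Vwa2 stood at 27.7 to 2.46 and 9.96 to 11.8 (-3.69 ± 0.41, adjusted p = 0.000342), and Aqp4 at 51.4 to 5.93 and 30.8 to 35.3 (-3.27 ± 0.22, adjusted p = 1.01e-05). Tmem207 stood at 17.6 to 0.354 and 37.7 to 5.04 (-2.65 ± 0.51, adjusted p = 0.0094), Fam107a at 186 to 2.67 and 87 to 6.63 (-2.42 ± 0.39, adjusted p = 0.00309), and Ogn, a small proteoglycan, at 21.9 to 2.22 and 23.6 to 11.5 (-2.25 ± 0.32, adjusted p = 0.00171). With 1 section left out, 8 to 9 of the 10 calls against cortex were made again, and 5 to 6 of the 10 against inner stripe when it was an ischemic section, 8 to 10 when it was a normal one. Against cortex the calls lost were Slpi without normal section 2 (adjusted p = 1), Gm3776 without normal section 1 (0.198) or ischemic section 1 (0.0620), and Nccrp1 without each section but normal 1 (0.0547 to 0.296). Against inner stripe, Slc51a (0.103 and 0.227), Tmem207 (0.168 and 0.110), Fam107a (0.0708 and 0.0668) and Krt20 (0.0813 and 0.0960) lost the call without either ischemic section, Krt20 also without normal section 2 (1), Gsta1 without normal section 2 (0.112) and Ogn without ischemic section 1 (0.0734).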

How the results depend on the processing

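With 2 sections per condition and no label that ties them to mice, p-values cover the spread between sections only. The ischemic spots were ranked mainly by Serpina1f, and genes at or under 3 counts in both conditions carry no fold. Of 2568 values computed for 162 genes under the alternatives, 2427 kept direction and, where tested, side of the threshold, 41 lost the call, 27 gained it, 40 turned direction, and 33 values without a test moved by over 1 standard error. The rankings by 3 carriers and without Serpina1f were added after the data had been seen, as was the use of all 3 other gene rankings in the comparison of zones. The 8188 genes called overall became 7060 to 7854 when 1 section was left out. With DESeq2 the genes called higher fell from 4232 to 2781, and with total UMI scaling the genes called lower fell from 3956 to 2529.

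The numbers that sections share across conditions were not used to pair them. The correlation across genes of replicate 1 minus 2 between the conditions was 0.034. Such a correlation cannot exclude a pairing that acts on few genes, and whether sections of the same number shared handling was not tested. With the section number as a block, 8261 genes were called in place of 8188.

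Against cortex, the total of 3193 became 1519 with DESeq2 (561 above, 958 below) and ran from 961 to 3806 over the 4 omissions of a section, with 373 to 1558 above and 588 to 2248 below. With the 8-gene ranking it was 1031 (541 and 490), and with the 3 carriers 2010, with 1080 below. Against inner stripe, the total of 1272 became 561 with DESeq2 (444 above, 117 below), 666 without the section block (397 and 269), 821 with a replicate block in its place (485 and 336) and 697 in the top 10% of spots (429 and 268). It ran from 134 to 2109 over the omissions, with 104 to 1244 above and 30 to 884 below. Total UMI scaling gave 1171 above and 295 below, no filter gave 822 below, ranking without neighbours 890 below, and the 8-gene ranking 1294 above. The cause of these shifts was not tested.

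Single genes that turned were, with total UMI scaling, Slc5a1 (log2 0.0716), Ccng1 (0.21), Hspd1 (0.23), Hsph1 (0.32) and Aqp2 (0.12), and, ranked without neighbours, Aqp2 (0.20) and Gclm (-0.0158). With the 8-gene ranking these were Slc5a1 (0.10), Cyp4a10 (0.12), Ehhadh (0.0576), Acaa1b (1.53), Pax8 (-0.0733), Hspa1a (-0.23), Abcg2 (0.15), Cpt1a (0.22), Hadha (0.0183), Cyp4b1 (0.71), Pex11a (1.42), Hspd1 (0.12), Prdx1 (-0.0269) and Plvap (-0.0117). With the 3-carrier ranking they were Acaa1b (0.65), Pex11a (0.60), Cyp4b1 (0.24), Hspd1 (0.14), Hsph1 (0.0103) and Plvap (-0.0344), and with the rule without Serpina1f Acaa1b (0.19) and Pex11a (0.12). Slc12a3, at 0.00498 as reported, turned with DESeq2 (-0.0599), a replicate block (-0.00822), the top 10% of spots (-0.0747) and thinned sums (-0.0382). Over the omissions of a section Fth1 ran from -0.0525 to 0.250, Prdx1 from -0.0353 to 0.115, Gclm from -0.0423 to 0.144, Hsph1 from -0.175 to 0.00137 and Slc12a3 from -0.422 to 0.356.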
